A study of Homo sapiens with 12 samples.

Results

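The genes described here are 41 genes of the cellular response to low oxygen and of glycolysis, followed across 4 siRNA groups of RCC4 cells. They were taken by name, as a list drawn up with earlier results of these data known, and a gene was measured where the array annotation gave at least 1 probe set to its symbol alone. By this rule 40 of the 41 were measured, by 74 probe sets, out of 11963 genes in all, and CA9 had 0 such probe sets, so its expression was not analysed here. RCC4 is an established line from a human clear cell renal carcinoma, and its cultures were collected 72 h after transfection with 40 pmol of siRNA. The 12 arrays were biological triplicates of siRNA against MESH1 and ATF4 together (siMESH1+siATF4), against MESH1 (siMESH1), against ATF4 (siATF4), or of a non-targeting control (siNT), with the same line, medium and transfection reagent in all 4 groups. The study asked how much of the transcriptional response to MESH1 knockdown depends on ATF4. MESH1 is an enzyme that removes a phosphate from NADPH and is encoded by HDDC3. ATF4 is the transcription factor at the centre of the integrated stress response. MESH1 was silenced with 1 siRNA sequence and ATF4 with a pool, in 1 cell line, and how the siRNA was divided in the double knockdown is not given in the sources used here.

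Hypoxia-inducible factor (HIF) is a pair of an oxygen-sensitive alpha subunit, HIF1A or EPAS1, with ARNT. In oxygen the EGLN prolyl hydroxylases mark the alpha subunit, and the VHL ubiquitin ligase then sends it for degradation. Clear cell renal carcinoma cells usually lack working VHL, as RCC4 cells do, so the alpha subunits persist in normal oxygen and the target genes are transcribed in ordinary culture. Those targets include glucose transporters, nearly every glycolytic enzyme, enzymes that keep the cell interior from turning acid, secreted factors such as VEGFA, and enzymes that modify collagen.

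Every value below is a log2 signal minus the mean of the 3 siNT arrays for the same gene, averaged over the probe sets of that gene. The deposited table holds these differences and no absolute signal, so levels could not be compared between genes, and the identity of the cells could not be checked by whether a marker was present. Differences were tested with limma in a single fit of all arrays. A gene is said to have risen or fallen, or to be called, where its Benjamini-Hochberg adjusted p over the 11963 genes was under 0.05 and its difference in log2 signal was 0.5 or more in size, referred to below as the fold minimum. Errors are standard errors (SE) of the fit, and n = 3 arrays in each group throughout.

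Of the facts that touch all genes, ATF4 itself lay between -2.46 and -2.23 on the siMESH1+siATF4 arrays, between -0.10 and 0.04 on the siMESH1 arrays and between -2.33 and -2.29 on the siATF4 arrays, against -0.10 to 0.10 on the siNT arrays. HDDC3 had 0 probe sets with its symbol, so MESH1 silencing could not be checked here. All 12 proliferation genes examined beside the hypoxia genes fell in each knockdown, with medians of -1.73 in siMESH1+siATF4, -1.45 in siMESH1 and -1.32 in siATF4, and their part in the results below was not tested. Of 8 measured markers of leukocytes, endothelium and, with HBB, red cells, 0 were called against siNT in any knockdown. The 8 housekeeping genes used for an alternative scaling averaged -0.125 in siMESH1+siATF4, -0.204 in siMESH1 and -0.127 in siATF4, with HPRT1 at -0.498, -0.664 and -0.490 in those groups. YWHAZ lay at -0.467, -0.102 and -0.611 and GUSB at 0.024, -0.353 and 0.117 in the same order, while the other 5 lay between -0.212 and 0.124. Setting that average to 0 on each array, called housekeeping centring below, moved the median of all genes from 0.013 to 0.138 in siMESH1+siATF4, from 0.028 to 0.232 in siMESH1 and from 0.020 to 0.147 in siATF4.

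The promoters of members called in at least 2 comparisons that have a single promoter in the RefSeq table (assembly GRCh38.p14) are shown because HIF binds the core letters ACGTG or GCGTG. Each is the 250 bases before the start site, 5′ to 3′ on the strand of the gene, with ACGTG or GCGTG, or their complements CACGT or CACGC where the core lies on the opposite strand, in capitals.
CA12 (chr15:63381847-63382096, minus strand): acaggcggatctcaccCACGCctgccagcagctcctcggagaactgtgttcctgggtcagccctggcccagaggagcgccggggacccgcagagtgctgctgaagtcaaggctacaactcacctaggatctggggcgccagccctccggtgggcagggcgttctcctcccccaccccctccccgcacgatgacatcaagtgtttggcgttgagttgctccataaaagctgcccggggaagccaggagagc
ADM (chr11:10304823-10305072, plus strand): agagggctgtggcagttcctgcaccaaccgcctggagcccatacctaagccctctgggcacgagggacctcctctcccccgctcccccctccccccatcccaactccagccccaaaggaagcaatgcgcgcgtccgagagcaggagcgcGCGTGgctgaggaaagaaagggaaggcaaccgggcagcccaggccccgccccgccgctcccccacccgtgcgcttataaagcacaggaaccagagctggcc
PGK1 (chrX:78103998-78104247, plus strand): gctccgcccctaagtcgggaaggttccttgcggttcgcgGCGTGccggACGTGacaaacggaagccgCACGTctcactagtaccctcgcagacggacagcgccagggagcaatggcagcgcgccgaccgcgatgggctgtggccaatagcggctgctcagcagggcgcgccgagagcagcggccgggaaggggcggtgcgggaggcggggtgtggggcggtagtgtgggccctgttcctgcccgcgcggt
P4HA2 (chr5:132227092-132227341, minus strand): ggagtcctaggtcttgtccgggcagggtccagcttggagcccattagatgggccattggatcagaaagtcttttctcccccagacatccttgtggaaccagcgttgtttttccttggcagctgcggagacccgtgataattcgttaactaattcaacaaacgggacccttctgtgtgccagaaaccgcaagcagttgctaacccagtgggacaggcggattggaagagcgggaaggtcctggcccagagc
CA12 had 1 GCGTG on the opposite strand that began 234 bases before the start site, ADM had 1 GCGTG at 101 bases, and P4HA2 had 0 matches. PGK1 held 3 matches within a short stretch, a GCGTG at 211 bases, an ACGTG at 202 bases and an ACGTG on the opposite strand at 183 bases. VEGFA, SLC2A3, HILPDA, NDRG1, LOXL2 and BNIP3L had no entry in the promoter table, so their promoters were not searched. Over the 35 members in the promoter table, CA9 with 1 ACGTG among them, 30 (85.7%) had ACGTG or GCGTG on either strand in at least 1 listed promoter, against 47.4% of all 27305 genes. Counted per promoter the shares were 40 of 57 (70.2%) for members and 43.2% of all 35116 promoters. The letters TGATGNAA, a core of ATF4 sites, were searched on both strands in the same windows and stood in 1 of the 35 (2.86%), against 3.89% of all genes. ACGTG occurred in 57.1% of members and 21.7% of all genes, GCGTG in 60.0% and 36.2%, and a promoter could hold both. A match is a string of letters and no measure of binding. The members were listed as genes of the low-oxygen response and glycolysis, so the contrast with all genes describes that list and is no test.

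MESH1 knockdown lowered carbonic anhydrase 12, the angiogenic factor VEGFA, adrenomedullin and several glycolytic enzymes. In siMESH1 against siNT, 10 of the 40 measured members fell, namely CA12, ADM, VEGFA, HK2, HK1, HILPDA, PFKP, PGK1, ENO1 and LOX, where 5.37% of all genes tested fell. Members that rose numbered 0, where 2.82% of all genes rose. The median of the 40 members was -0.179, against 0.028 for all genes. Below the siNT mean lay 31 of the 40 members and 5182 of all 11963 genes. Under housekeeping centring the member median changed sign to 0.025, against 0.232 for all genes, and 2 of 40 members fell (CA12 and ADM), where 3.21% of all genes fell under that centring, while 1 rose (MXI1), where 9.74% of all genes rose. In RNA from whole cultures, fewer cells with a transcript and less of it per cell cannot be told apart.

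After ATF4 knockdown alone the calls among these genes were close to the share over all genes. In siATF4 against siNT the glucose transporter SLC2A3 rose, 1 of 40 where 2.49% of all genes rose, and the glycolytic kinase PGK1 fell, 1 of 40 where 4.03% of all genes fell. The study took genes that changed with ATF4 siRNA alone to be off-target and left them out, a reading not tested here. The member median was 0.018 and that of all genes 0.020. Under housekeeping centring 3 members rose in siATF4 (SLC2A3, HILPDA and P4HA2), where 5% of all genes rose, and 0 fell, where 2.83% of all genes fell. Double knockdown was followed by a rise of SLC2A3 (1 of 40, 4.4% of all genes) and by falls of PGK1, CA12, HK2 and NDRG1 (4 of 40, 5.25% of all genes) relative to siNT. Its member median was -0.094, or 0.031 under housekeeping centring, against 0.013 and 0.138 for all genes. EPAS1 and P4HA2 also rose under that centring, for 3 of 40 that rose, where 7.74% of all genes rose, and 4 of 40 that fell, where 3.91% of all genes fell.

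The direct comparisons between knockdowns do not take a mean from the siNT arrays. In siMESH1+siATF4 relative to siMESH1, 5 of 40 members were higher (CA12, HILPDA, LOX, P4HA2 and SLC2A3), where 3.42% of all genes were higher, and 0 were lower, where 2.68% of all genes were. In siMESH1+siATF4 relative to siATF4, CA12 and ADM were lower, 2 of 40 where 1.28% of all genes were lower, and 0 were higher, where 0.351% of all genes were. In siMESH1 relative to siATF4, 9 of 40 members were lower (CA12, ADM, HILPDA, LOX, PFKP, P4HA2, SLC2A3, SLC2A1 and VEGFA), where 4.75% of all genes were lower, and 0 were higher, where 3.91% of all genes were. The interaction asks whether the effect of MESH1 knockdown differed with and without ATF4 knockdown, and subtracts the effect in the siNT background (siMESH1 minus siNT) from that in the siATF4 background (siMESH1+siATF4 minus siATF4). CA12 alone of the members had a called interaction, above 0 (1 of 40, 3.46% of all genes), and 0 were called below 0 (0.853% of all genes). These comparisons share arrays with each other, so their values are given side by side below for each gene.

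**Figure D1:**
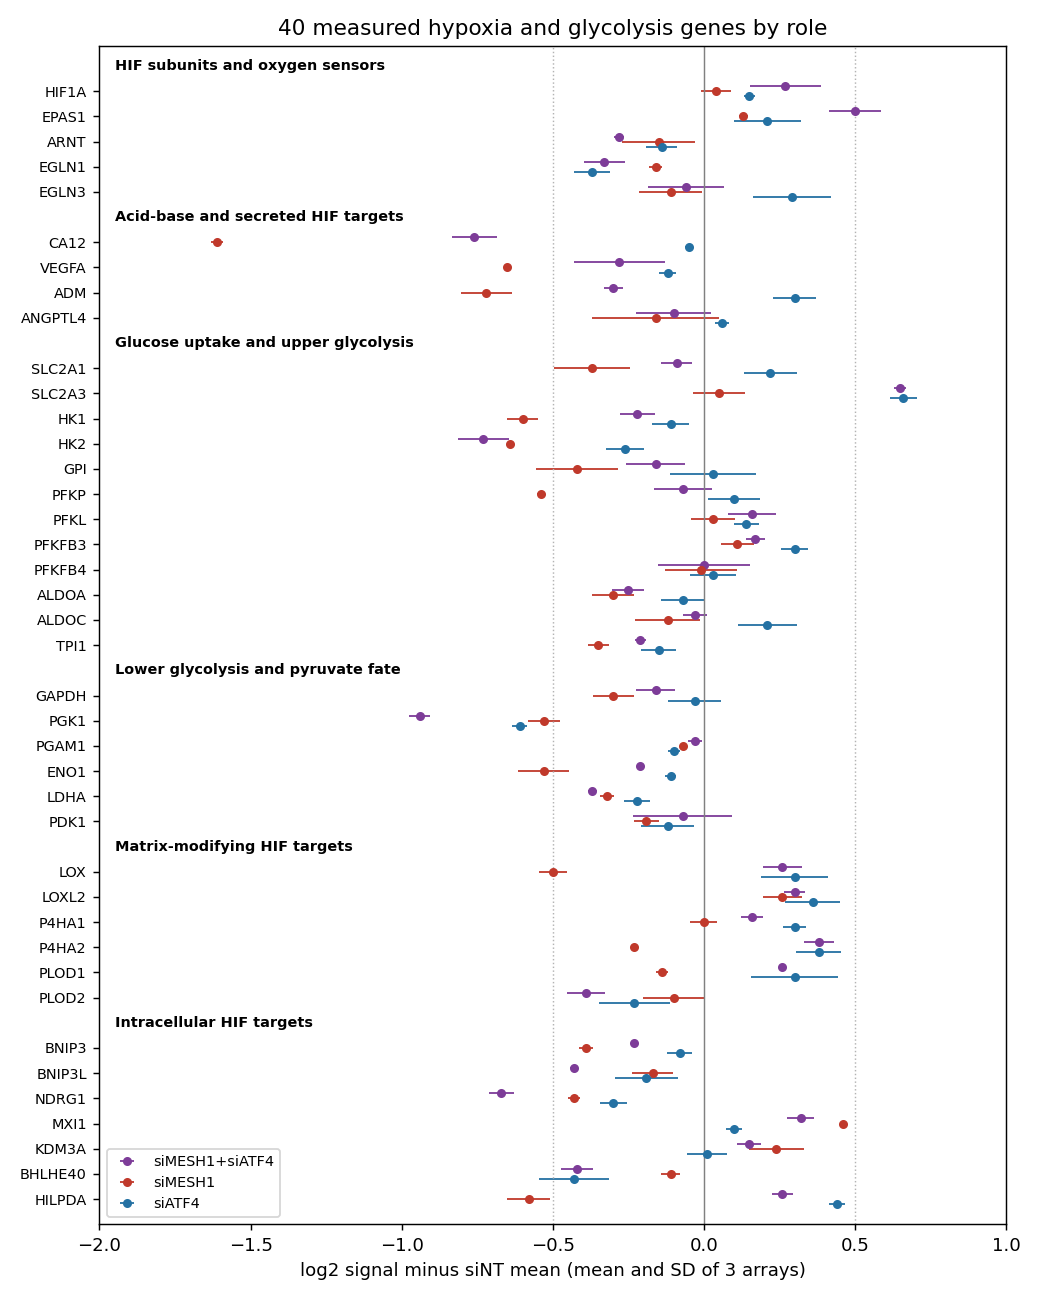
Mean log2 signal minus the siNT mean for the 40 measured genes, ordered by role, with siMESH1+siATF4, siMESH1 and siATF4 as points from top to bottom and the SD of 3 arrays as bars. The dotted lines mark -0.5 and 0.5, the vertical line at 0 is the siNT mean, and CA12 in siMESH1 (-1.61) lies farthest from it.

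The HIF subunits and oxygen sensors were called in 0 of the 7 comparisons. Over all genes the share called in a given direction ran from 0.351% to 5.37%, so 0 calls among so few genes lie near it. HIF1A, the oxygen-labile alpha subunit, averaged 0.27 in siMESH1+siATF4, 0.04 in siMESH1 and 0.15 in siATF4. EPAS1, the alpha subunit that predominates in many clear cell renal carcinomas, read 0.55, 0.54 and 0.40 on the siMESH1+siATF4 arrays, 0.14, 0.13 and 0.11 on the siMESH1 arrays and 0.08, 0.27 and 0.27 on the siATF4 arrays, against -0.06, -0.07 and 0.13 on the siNT arrays. The double knockdown arrays of EPAS1 lay above those of every other group. Its difference from siNT, 0.497 ± 0.071 (SE, limma adjusted p = 1.1e-04), was just under the fold minimum on the deposited scale and above it without siNT replicate 3, without siMESH1+siATF4 replicate 3 (range 0.463 to 0.560 over single arrays left out) and under housekeeping centring (0.622). It also passed under control set centring (0.552). The 2 probe sets of EPAS1 stood apart, at 0.82 and 0.17 in the double knockdown, and the probe set at 0.82 is the only one with a name that marks it as specific, so that EPAS1 was called at 0.819 when probe sets that may cross-hybridise were left out.

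ARNT, the partner of either alpha subunit, averaged -0.28 in siMESH1+siATF4, -0.15 in siMESH1 and -0.14 in siATF4. Only 1 of its 3 probe sets has a name that marks it as specific for ARNT, and that probe set alone gave -0.63 in siMESH1+siATF4, -0.55 in siMESH1 and -0.31 in siATF4, and the values of -0.63 and -0.55 were called when probe sets that may cross-hybridise were left out. The prolyl hydroxylase EGLN1 averaged -0.33 in siMESH1+siATF4, -0.16 in siMESH1 and -0.37 in siATF4. EGLN3, a prolyl hydroxylase that HIF itself induces, averaged -0.06, -0.11 and 0.29 in the same groups. Over these 5 genes the median in siMESH1 was -0.105 on the deposited scale and 0.099 under housekeeping centring.

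Genes for acid-base balance and secreted factors held the largest difference among the members, that of CA12. CA12 encodes a carbonic anhydrase of the cell surface that hydrates carbon dioxide outside the cell. It read -0.81, -0.68 and -0.81 on the siMESH1+siATF4 arrays, -1.62, -1.62 and -1.58 on the siMESH1 arrays and -0.04, -0.06 and -0.04 on the siATF4 arrays, against -0.08, 0.08 and 0.00 on the siNT arrays. The siMESH1 arrays lay lowest, the double knockdown arrays stood between them and the rest, and the siATF4 arrays lay within the range of siNT. CA12 was 3.05-fold lower in siMESH1 than in siNT (-1.61 ± 0.055, SE, limma adjusted p = 6.9e-10) and 1.70-fold lower in siMESH1+siATF4 than in siNT (-0.76, adjusted p = 2.3e-07). Its siMESH1+siATF4 value exceeded that in siMESH1 by 0.84 (1.79-fold, adjusted p = 2.7e-07) and was 0.72 below that in siATF4 (difference -0.72, adjusted p = 5.6e-06). The effect of MESH1 knockdown on CA12 was thus -0.72 with ATF4 silenced and -1.61 without, an interaction of 0.89 ± 0.078 (SE, adjusted p = 1.4e-05), which ranged from 0.684 under housekeeping centring to 1.00 with the median of the probe sets. HDDC3 was not measured, so whether MESH1 was silenced equally with and without siATF4 could not be checked.

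The 6 probe sets of CA12 were below siNT in siMESH1, from -1.99 to -0.90, and in siMESH1+siATF4, from -0.85 to -0.66. The plot of probe sets shows the probe set at -0.90 with a wider spread (SD 0.213) than the other 5. In siATF4 the 6 probe sets lay between -0.25 and 0.06.

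VEGFA encodes the main growth factor for new blood vessels, a secreted HIF target. VEGFA read -0.26, -0.44 and -0.14 on the siMESH1+siATF4 arrays, -0.66, -0.64 and -0.64 on the siMESH1 arrays and -0.14, -0.13 and -0.09 on the siATF4 arrays, against -0.02, 0.01 and 0.01 on the siNT arrays. Every siMESH1 array lay below every array of the other groups, while the double knockdown arrays were the most spread (SD 0.151) and reached up to the lowest siATF4 array, at -0.14 for both. VEGFA fell 1.57-fold in siMESH1 relative to siNT (-0.65 ± 0.065, SE, limma adjusted p = 6.1e-06) and was 1.44-fold lower in siMESH1 than in siATF4 (-0.53, adjusted p = 3.3e-05). Neither difference kept the fold minimum under housekeeping centring (-0.443 and -0.453). The 4 probe sets of VEGFA ranged from -0.76 to -0.38 in siMESH1. Its interaction of 0.48 (SE 0.092, adjusted p = 0.0042) missed the fold minimum, which it passed without siMESH1+siATF4 replicate 2 (0.564). It also passed under array median centring (0.515) and with the median of the probe sets (0.552), and lay at 0.278 under housekeeping centring.

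Adrenomedullin, a secreted vasodilator peptide encoded by ADM, followed a different order. ADM read -0.31, -0.27 and -0.33 on the siMESH1+siATF4 arrays, -0.65, -0.71 and -0.82 on the siMESH1 arrays and 0.25, 0.38 and 0.26 on the siATF4 arrays, against -0.03, 0.10 and -0.07 on the siNT arrays. The 4 groups did not overlap, with siATF4 highest and siMESH1 lowest. ADM fell 1.65-fold in siMESH1 relative to siNT (-0.72 ± 0.062, SE, limma adjusted p = 1.6e-06), or by 0.520 under housekeeping centring. It was 1.52-fold lower in siMESH1+siATF4 than in siATF4 (-0.60, adjusted p = 6.6e-05) and 2.03-fold lower in siMESH1 than in siATF4 (-1.02, adjusted p = 8.5e-08). The effect of MESH1 knockdown on ADM was therefore called in either ATF4 background, and the interaction was 0.12 (SE 0.088, adjusted p = 0.44), or -0.083 under housekeeping centring. ANGPTL4, a secreted inhibitor of lipoprotein lipase, was called in 0 comparisons, with means of -0.10 in siMESH1+siATF4, -0.16 in siMESH1 and 0.06 in siATF4 and the widest spread of any member (SD 0.211 in siMESH1).

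**Figure D2:**
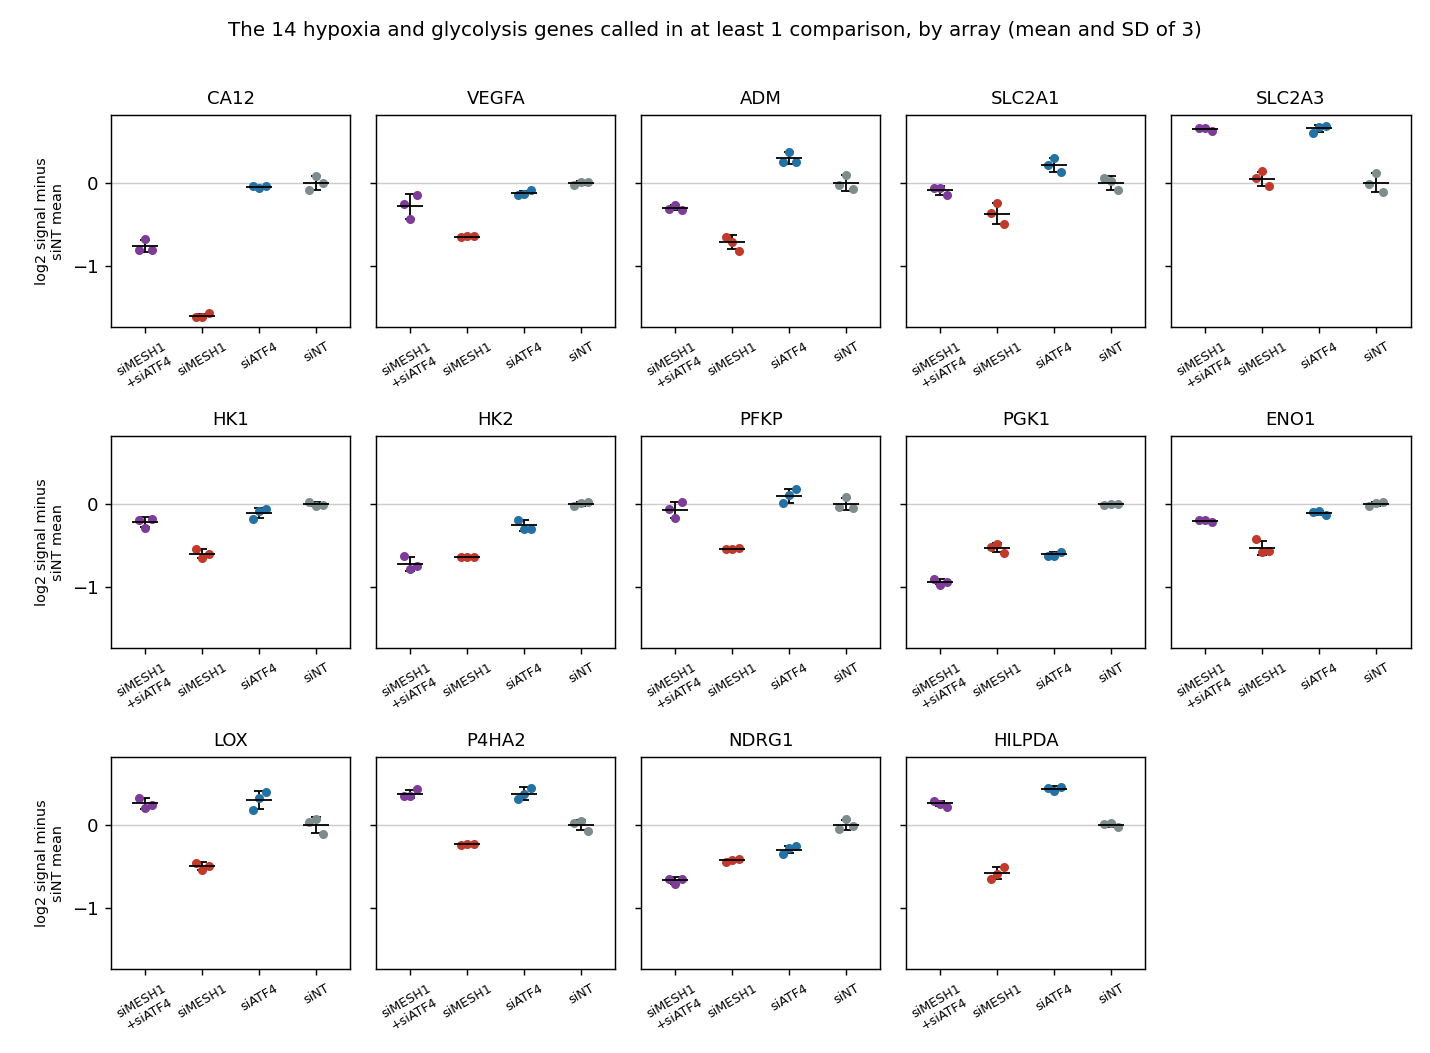
Log2 signal minus the siNT mean on each array (points) for the 14 members called in at least 1 of the 7 comparisons, with the mean and SD of 3 arrays, for siMESH1+siATF4, siMESH1, siATF4 and siNT from left to right. CA12 lies at -1.61 in siMESH1, and SLC2A3 lies near 0.65 in both groups that received siATF4.

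Glucose uptake and the upper part of glycolysis comprised 12 measured genes. Against siNT, 3 of them fell and 0 rose in siMESH1 (median -0.326, or -0.122 under housekeeping centring), 1 rose and 0 fell in siATF4 (median 0.066), and 1 rose and 1 fell in siMESH1+siATF4 (median -0.081, or 0.044 under housekeeping centring). Over all genes 5.37% fell and 2.82% rose in siMESH1, 2.49% rose and 4.03% fell in siATF4, and 4.4% rose and 5.25% fell in siMESH1+siATF4. All 12 were lower in siMESH1 than in siATF4 on the deposited scale, and 11 of them under housekeeping centring. How many of all genes lay lower in that comparison, called or not, is not given here. Of the 12 differences on the deposited scale 3 were called, where 4.75% of all genes were called lower.

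The 2 glucose transporters had different patterns. SLC2A1, which encodes GLUT1, the common transporter of tumour cells, read -0.06, -0.06 and -0.15 on the siMESH1+siATF4 arrays, -0.36, -0.24 and -0.50 on the siMESH1 arrays and 0.22, 0.30 and 0.13 on the siATF4 arrays, against 0.06, 0.03 and -0.09 on the siNT arrays. The siMESH1 arrays were lowest and the siATF4 arrays highest, with no overlap between those groups, and SLC2A1 was 1.50-fold lower in siMESH1 than in siATF4 (-0.58 ± 0.072, SE, limma adjusted p = 3.5e-05). Its difference from siNT was not called in any knockdown (-0.09 in siMESH1+siATF4, -0.37 in siMESH1 and 0.22 in siATF4).

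SLC2A3 encodes GLUT3, a transporter of high affinity. SLC2A3 read 0.66, 0.66 and 0.63 on the siMESH1+siATF4 arrays, 0.06, 0.14 and -0.04 on the siMESH1 arrays and 0.61, 0.68 and 0.69 on the siATF4 arrays, against -0.01, 0.12 and -0.11 on the siNT arrays. The 6 arrays of cells that received siATF4 lay above the other 6, and within each of these sets the groups overlapped. SLC2A3 rose 1.57-fold in siMESH1+siATF4 (0.65 ± 0.064, SE, limma adjusted p = 4.3e-06) and 1.58-fold in siATF4 (0.66, adjusted p = 5.6e-06) relative to siNT, and the double knockdown was 1.51-fold above siMESH1 (0.60, adjusted p = 1.7e-05). It was 1.53-fold lower in siMESH1 than in siATF4 (-0.61, adjusted p = 8.9e-06). All 3 of its probe sets may cross-hybridise, and 2 further probe sets that the annotation gives to SLC2A3 and another gene were not used, so signal from a near-identical gene cannot be told apart from SLC2A3. The 3 probe sets differed in size, from 0.28 to 0.91 in siMESH1+siATF4 and from 0.27 to 0.93 in siATF4.

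The hexokinases carry out the first step after uptake, the phosphorylation of glucose. HK1 read -0.19, -0.29 and -0.18 on the siMESH1+siATF4 arrays, -0.54, -0.65 and -0.61 on the siMESH1 arrays and -0.18, -0.09 and -0.06 on the siATF4 arrays, against 0.02, -0.02 and -0.01 on the siNT arrays. The siMESH1 arrays lay below all others, and the highest double knockdown array and the lowest siATF4 array both read -0.18. HK1 fell 1.51-fold in siMESH1 relative to siNT (-0.60 ± 0.052, SE, limma adjusted p = 1.7e-06), but under housekeeping centring it lay at -0.394 and was not called. Its interaction of 0.49 (SE 0.073, adjusted p = 7.7e-04) was below the fold minimum and ranged from 0.455 to 0.524 with single arrays left out, where it was called without siMESH1 replicate 1, siMESH1+siATF4 replicate 2, siATF4 replicate 2 or siATF4 replicate 3. The interaction was also called under array median centring (0.522) and lay at 0.284 under housekeeping centring.

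HK2, the hexokinase that hypoxia induces, had another pattern. HK2 read -0.63, -0.79 and -0.75 on the siMESH1+siATF4 arrays, -0.64, -0.64 and -0.64 on the siMESH1 arrays and -0.19, -0.30 and -0.30 on the siATF4 arrays, against -0.03, 0.01 and 0.02 on the siNT arrays. Both groups that received siMESH1 lay below siATF4, which lay below siNT, and siMESH1+siATF4 and siMESH1 overlapped. HK2 fell 1.66-fold in siMESH1+siATF4 (-0.73 ± 0.054, SE, limma adjusted p = 2.9e-07) and 1.56-fold in siMESH1 (-0.64, adjusted p = 1.2e-06) relative to siNT, of which the siMESH1 call was lost under housekeeping centring (-0.434). The siMESH1+siATF4 minus siATF4 difference was -0.47, under the fold minimum with all arrays. Its 2 probe sets read -0.91 and -0.55 in siMESH1+siATF4, -0.59 and -0.69 in siMESH1, and -0.39 and -0.13 in siATF4.

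PFKP, the platelet form of phosphofructokinase, which commits sugar to glycolysis, read -0.06, -0.17 and 0.02 on the siMESH1+siATF4 arrays, -0.55, -0.54 and -0.53 on the siMESH1 arrays and 0.01, 0.11 and 0.18 on the siATF4 arrays, against -0.04, 0.08 and -0.05 on the siNT arrays. Only the siMESH1 arrays stood apart, below all the others. PFKP fell 1.45-fold in siMESH1 relative to siNT (-0.54 ± 0.063, SE, limma adjusted p = 2.3e-05), a call lost without siNT replicate 2 (-0.498) and under housekeeping centring (-0.335). It was 1.56-fold lower in siMESH1 than in siATF4 (-0.64, adjusted p = 4.9e-06).

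The other 7 upper-pathway genes were called in 0 comparisons. The isomerase GPI averaged -0.16 in siMESH1+siATF4, -0.42 in siMESH1 and 0.03 in siATF4, and triosephosphate isomerase TPI1 averaged -0.21, -0.35 and -0.15. The aldolase ALDOA averaged -0.25, -0.30 and -0.07, while its isozyme ALDOC averaged -0.03, -0.12 and 0.21. The liver phosphofructokinase PFKL lay at 0.16, 0.03 and 0.14. For the bifunctional enzymes that set the level of fructose 2,6-bisphosphate, PFKFB3 lay at 0.17, 0.11 and 0.30 and PFKFB4 at 0.00, -0.01 and 0.03. Each triple is in the group order given for GPI.

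Lower glycolysis and the fate of pyruvate comprised 6 genes, all with means below siNT in every knockdown on the deposited scale. Their medians were -0.183 in siMESH1+siATF4, -0.310 in siMESH1 and -0.112 in siATF4, and under housekeeping centring -0.058, -0.106 and 0.015. Of all 11963 genes, 5182 lay below siNT in siMESH1 on the deposited scale, and such counts for the other knockdowns are not given here. PGK1 and ENO1 fell in siMESH1, and PGK1 fell in each of the other knockdowns. No gene of this group rose. The falls were thus 1 of 6 in siMESH1+siATF4, 2 of 6 in siMESH1 and 1 of 6 in siATF4, where 5.25%, 5.37% and 4.03% of all genes fell.

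PGK1, phosphoglycerate kinase, which makes the first ATP of the pathway, was the member with a called fall in each knockdown. PGK1 read -0.91, -0.98 and -0.94 on the siMESH1+siATF4 arrays, -0.52, -0.49 and -0.59 on the siMESH1 arrays and -0.63, -0.63 and -0.58 on the siATF4 arrays, against -0.01, 0.00 and 0.00 on the siNT arrays. The double knockdown arrays lay below both single knockdowns, which overlapped each other. PGK1 fell 1.92-fold in siMESH1+siATF4 (-0.94 ± 0.046, SE, limma adjusted p = 6.4e-09), 1.44-fold in siMESH1 (-0.53, adjusted p = 1.6e-06) and 1.53-fold in siATF4 (-0.61, adjusted p = 5.7e-07) relative to siNT. The calls in siMESH1 and siATF4 were lost under housekeeping centring (-0.326 and -0.485). The double knockdown was -0.41 from siMESH1 and -0.33 from siATF4, both under the fold minimum, and the interaction was 0.20. Each of its 4 probe sets lay lowest in siMESH1+siATF4, from -1.26 to -0.65. Its promoter is the one printed above with 3 matches to the HIF core.

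ENO1, enolase, read -0.20, -0.20 and -0.22 on the siMESH1+siATF4 arrays, -0.43, -0.58 and -0.57 on the siMESH1 arrays and -0.10, -0.09 and -0.13 on the siATF4 arrays, against -0.03, 0.01 and 0.02 on the siNT arrays. The 4 groups did not overlap, with siMESH1 lowest. ENO1 fell 1.44-fold in siMESH1 relative to siNT (-0.53 ± 0.050, SE, limma adjusted p = 3.8e-06), or -0.324 under housekeeping centring, where it was not called. All 3 of its probe sets may cross-hybridise and lay between -0.61 and -0.45 in siMESH1.

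Lactate dehydrogenase LDHA, which turns pyruvate into lactate, averaged -0.37 in siMESH1+siATF4, -0.32 in siMESH1 and -0.22 in siATF4, under the fold minimum throughout. GAPDH averaged -0.16 in siMESH1+siATF4, -0.30 in siMESH1 and -0.03 in siATF4. A separate reading of GAPDH by 3 control probe sets of the array, left out of the gene means, gave -0.182 ± 0.070, -0.302 ± 0.086 and -0.058 ± 0.085 in the same groups (SD, n = 3), with exact two-sided permutation p of 0.1, 0.1 and 0.4 against siNT, where 0.1 is the smallest p that 3 against 3 arrays allow. Phosphoglycerate mutase PGAM1 averaged -0.03, -0.07 and -0.10, and PDK1, the kinase that keeps pyruvate out of the mitochondrial cycle, averaged -0.07, -0.19 and -0.12 in the same groups.

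As signs of RNA quality, the difference between the 3′ and the 5′ control probe sets of ACTB averaged -0.300 in siMESH1+siATF4, -0.111 in siMESH1 and -0.293 in siATF4 relative to siNT, and that of GAPDH averaged -0.022, 0.077 and -0.090. On the ACTB reading the siMESH1+siATF4 arrays (-0.453 to -0.214) and the siATF4 arrays (-0.373 to -0.209) lay below the siNT arrays (-0.063 to 0.062). The siMESH1 arrays overlapped siNT on that reading, as did every knockdown on the GAPDH difference. Over the 9 exact permutation tests of these readings and the GAPDH control reading above, the smallest p was 0.1 and the smallest adjusted p 0.23. Since 0.1 is the smallest p that 3 against 3 arrays allow, these tests could not have called a difference. The part of these RNA quality readings in the results was not tested.

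Among the matrix-modifying targets, LOX and P4HA2 were lower in siMESH1 than in either group that received siATF4. Of the 6 genes, 1 fell in siMESH1 against siNT, where 5.37% of all genes fell (median -0.119, or 0.086 under housekeeping centring), 0 were called in siATF4 (median 0.303) and 0 in siMESH1+siATF4 (median 0.262). Over all genes 2.49% rose and 4.03% fell in siATF4, and 4.4% rose and 5.25% fell in siMESH1+siATF4. In siMESH1 relative to siATF4, 2 were lower (median -0.369), where 4.75% of all genes were lower. In siMESH1+siATF4 relative to siMESH1, 2 were higher (median 0.283), where 3.42% of all genes were higher.

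LOX, the oxidase that crosslinks collagen and elastin, read 0.33, 0.21 and 0.24 on the siMESH1+siATF4 arrays, -0.46, -0.55 and -0.50 on the siMESH1 arrays and 0.18, 0.33 and 0.40 on the siATF4 arrays, against 0.04, 0.07 and -0.11 on the siNT arrays. Both groups that received siATF4 lay above siNT and the siMESH1 arrays below it, without overlap. LOX was 1.70-fold higher in siMESH1+siATF4 than in siMESH1 (0.76 ± 0.068, SE, limma adjusted p = 3.5e-06) and 1.75-fold lower in siMESH1 than in siATF4 (-0.81, adjusted p = 1.3e-06). Its fall of 1.42-fold in siMESH1 relative to siNT (-0.50, adjusted p = 8.3e-05) stood at the fold minimum. That call was lost without siNT replicate 1 (-0.481), siNT replicate 2 (-0.469) or siMESH1 replicate 2 (-0.479), with the median of its probe sets (-0.383), with control set centring (-0.476) and under housekeeping centring (-0.298). Its 3 probe sets gave -0.88, -0.28 and -0.34 in siMESH1.

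P4HA2 encodes a catalytic subunit of collagen prolyl 4-hydroxylase. P4HA2 read 0.35, 0.35 and 0.44 on the siMESH1+siATF4 arrays, -0.24, -0.23 and -0.23 on the siMESH1 arrays and 0.31, 0.38 and 0.45 on the siATF4 arrays, against 0.02, 0.05 and -0.07 on the siNT arrays. Both groups that received siATF4 overlapped each other and lay above siNT, and siMESH1 lay below it. P4HA2 was 1.53-fold higher in siMESH1+siATF4 than in siMESH1 (0.61 ± 0.053, SE, limma adjusted p = 3.0e-06) and 1.53-fold lower in siMESH1 than in siATF4 (-0.61, adjusted p = 1.8e-06). Against siNT its values of 0.38 in siMESH1+siATF4 and 0.38 in siATF4 were under the fold minimum and passed it under housekeeping centring (0.504 and 0.506). Its printed promoter held 0 matches to the HIF core.

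The related subunit P4HA1 averaged 0.16 in siMESH1+siATF4, 0.00 in siMESH1 and 0.30 in siATF4. The lysyl hydroxylase PLOD1 averaged 0.26, -0.14 and 0.30 in those groups, whereas PLOD2, which directs the crosslinks of stiff collagen, averaged -0.39, -0.10 and -0.23. LOXL2, a relative of LOX, averaged 0.30, 0.26 and 0.36. None of these 4 genes was called in any of the 7 comparisons on the deposited scale, although the interaction of LOXL2, -0.32, reached -0.524 and was called under housekeeping centring.

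The intracellular targets were 7 genes of mitophagy, lipid storage and transcription. HILPDA, a lipid droplet protein that hypoxia induces, read 0.29, 0.25 and 0.22 on the siMESH1+siATF4 arrays, -0.65, -0.59 and -0.51 on the siMESH1 arrays and 0.45, 0.41 and 0.46 on the siATF4 arrays, against 0.01, 0.02 and -0.03 on the siNT arrays. The 4 groups did not overlap, with siATF4 highest, siMESH1+siATF4 next, then siNT, and siMESH1 lowest. HILPDA was 1.79-fold higher in siMESH1+siATF4 than in siMESH1 (0.84 ± 0.049, SE, limma adjusted p = 1.2e-07) and 2.03-fold lower in siMESH1 than in siATF4 (-1.02, adjusted p = 1.3e-08). It fell 1.50-fold in siMESH1 relative to siNT (-0.58, adjusted p = 1.4e-06), or -0.376 and not called under housekeeping centring, which in turn carried its 0.44 in siATF4 past the fold minimum (0.567).

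NDRG1, a cytoplasmic protein induced by stress and hypoxia, read -0.65, -0.72 and -0.65 on the siMESH1+siATF4 arrays, -0.45, -0.42 and -0.41 on the siMESH1 arrays and -0.35, -0.28 and -0.26 on the siATF4 arrays, against -0.05, 0.07 and -0.01 on the siNT arrays. The 4 groups did not overlap, and the double knockdown was lowest. NDRG1 fell 1.60-fold in siMESH1+siATF4 relative to siNT (-0.67 ± 0.049, SE, limma adjusted p = 2.6e-07), while -0.43 in siMESH1 and -0.30 in siATF4 were under the fold minimum. The interaction was 0.05.

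Of the 5 intracellular targets without a call, MXI1, which encodes an antagonist of MYC, read 0.47, 0.45 and 0.46 on the siMESH1 arrays, against -0.04, 0.01 and 0.04 on the siNT arrays. These arrays did not overlap, and the difference of 0.46 (limma adjusted p = 5.7e-06) was under the fold minimum on the deposited scale and above it under housekeeping centring (0.662). In siMESH1+siATF4 MXI1 averaged 0.32 and in siATF4 0.10. BNIP3, a receptor for mitophagy, averaged -0.23 in siMESH1+siATF4, -0.39 in siMESH1 and -0.08 in siATF4, and its relative BNIP3L averaged -0.43, -0.17 and -0.19. The transcriptional repressor BHLHE40 averaged -0.42, -0.11 and -0.43, with its 2 probe sets at -0.16 and -0.68 in siMESH1+siATF4, and the histone demethylase KDM3A averaged 0.15, 0.24 and 0.01. The median of all 7 in siMESH1 was -0.171, or 0.033 under housekeeping centring.

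**Figure D3:**
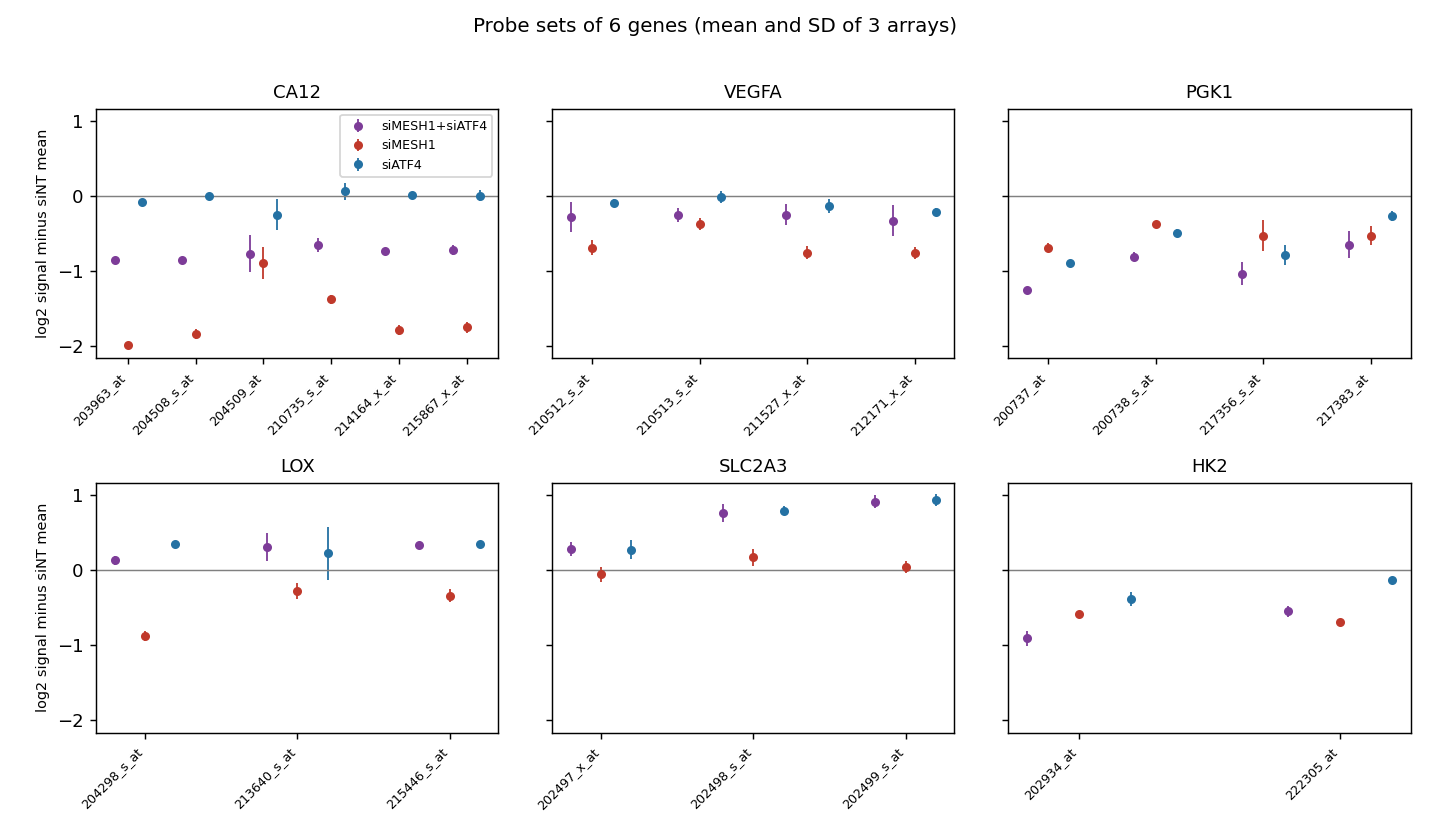
Mean log2 signal minus the siNT mean of each probe set (horizontal axis) of CA12, VEGFA, PGK1, LOX, SLC2A3 and HK2, with the SD of 3 arrays as bars, for siMESH1+siATF4, siMESH1 and siATF4. The CA12 probe sets span -1.99 to -0.90 in siMESH1, and the LOX probe sets span -0.88 to -0.28.

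The effect of each silencing can be read in 2 backgrounds that share no arrays. Over the 40 members, the effect of MESH1 silencing with ATF4 silenced and without it had a Pearson r of 0.76, and over all 11963 genes r was 0.69. The effect of ATF4 silencing with MESH1 silenced and without it had r = 0.66 over the members and 0.60 over all genes. These correlations run across genes, which are not independent replicates, and all values come from 1 joint normalisation. The median effect of MESH1 silencing on the members was -0.138 with ATF4 silenced and -0.179 without, and that of ATF4 silencing was 0.121 with MESH1 silenced and 0.018 without. The median interaction over the members was 0.122, against -0.020 for all genes, and -0.085 against -0.227 under housekeeping centring. The spread between arrays of 1 group was small beside the called differences, with median SDs over the members of 0.051 in siMESH1+siATF4, 0.052 in siMESH1, 0.062 in siATF4 and 0.058 in siNT.

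**Figure D4:**
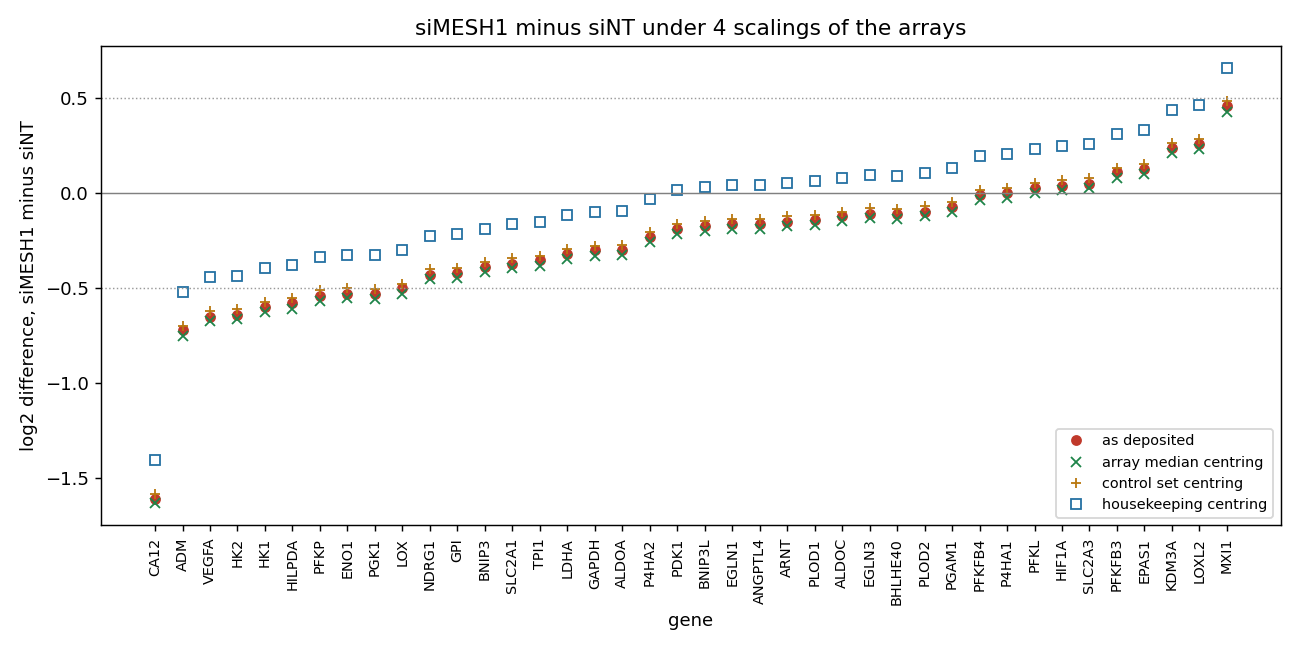
Log2 difference of siMESH1 minus siNT for the 40 members (horizontal axis, sorted by the deposited value) under 4 scalings of the arrays, shown by symbol. Dotted lines mark -0.5 and 0.5, and housekeeping centring raises every member by the same 0.204 and leaves CA12 and ADM below -0.5.

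Other genes of the pathway were read from 4 further lists. Against them stand the shares of all genes, of which 4.4% rose and 5.25% fell in siMESH1+siATF4, 2.82% rose and 5.37% fell in siMESH1, and 2.49% rose and 4.03% fell in siATF4, with medians of 0.013, 0.028 and 0.020. Among 13 measured genes of HIF degradation and its cofactors, 1 rose in siMESH1 and 1 rose and 1 fell in siMESH1+siATF4, while 1 fell in siATF4 (medians -0.030, -0.014 and 0.021 in that order). VHL, the ubiquitin ligase subunit, had values of -0.01 in siMESH1+siATF4, 0.07 in siMESH1 and 0.02 in siATF4. CITED2, which competes with HIF for its coactivator, rose in siMESH1+siATF4 (0.56 ± 0.056, SE, limma adjusted p = 5.5e-06) and in siMESH1 (0.74, adjusted p = 4.7e-07), and averaged 0.45 in siATF4. The gene that fell was HSP90AB1, a chaperone of the alpha subunit (-0.72 in siMESH1+siATF4 and -0.62 in siATF4, the siATF4 call lost at -0.494 under housekeeping centring).

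Among 22 measured isozymes and genes of lactate and pyruvate handling, 1 rose and 2 fell in siMESH1, 0 were called in siATF4, and 1 rose in siMESH1+siATF4 (medians -0.063, -0.015 and -0.090 in that order). ENO2, the neuronal enolase and a HIF target, fell 2.06-fold in siMESH1 (-1.04 ± 0.108, SE, limma adjusted p = 8.1e-06) and averaged -0.45 in siMESH1+siATF4 and -0.03 in siATF4. DLAT, a subunit of pyruvate dehydrogenase, fell in siMESH1 (-0.64, adjusted p = 6.3e-07, or -0.438 and not called under housekeeping centring). PDP1, the phosphatase that activates pyruvate dehydrogenase, rose in siMESH1+siATF4 (0.75, adjusted p = 8.8e-05) and in siMESH1 (0.52, adjusted p = 0.0018), the second of which was lost without siNT replicate 3 or siMESH1 replicate 3 (lowest value with a single array left out 0.421) and under array median centring (0.493).

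Of 26 measured further HIF targets, a list that also holds CITED2, 1 rose and 5 fell in siMESH1, 2 rose and 2 fell in siATF4, and 3 rose and 4 fell in siMESH1+siATF4 (medians -0.164, 0.032 and -0.073 in that order). CCND1, cyclin D1, fell 4.76-fold in siMESH1+siATF4 (-2.25 ± 0.081, SE, limma adjusted p = 4.6e-10), 3.80-fold in siMESH1 (-1.93) and 1.54-fold in siATF4 (-0.62, or -0.497 and not called under housekeeping centring). The transferrin receptor TFRC fell in siMESH1 (-1.17, adjusted p = 1.8e-09) and averaged -0.34 in siMESH1+siATF4 and 0.03 in siATF4. The secreted glycoprotein STC2 rose 1.79-fold in siMESH1+siATF4 (0.84, adjusted p = 2.9e-08) and 2.41-fold in siATF4 (1.27, adjusted p = 3.6e-09), and averaged -0.34 in siMESH1. IGFBP3, which binds insulin-like growth factors, fell in siMESH1+siATF4 (-1.08, adjusted p = 1.4e-08) and in siMESH1 (-0.74, adjusted p = 5.6e-07). The other falls in siMESH1, named to complete the count, were those of ERO1A (-1.19), the oxidase of protein folding, and INSIG2 (-1.05), a sterol sensor, and the rise was that of CITED2. The other calls in siATF4 were EDN1 (0.71), the vasoconstrictor endothelin, and the transcription factor MAFF (-0.50), which lost its call without siNT replicate 2 or siATF4 replicate 3 (smallest fall -0.464) and under housekeeping centring (-0.375). In siMESH1+siATF4 EDN1 (0.59) and CITED2 also rose, and MAFF (-0.66) and INSIG2 (-0.59, or -0.467 and not called under housekeeping centring) also fell.

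Of 10 measured collagen-modifying enzymes outside the members, 1 was called, LOXL1, which rose in siMESH1+siATF4 (0.62 ± 0.075, SE, limma adjusted p = 2.8e-05) and averaged 0.21 in siMESH1 and 0.42 in siATF4. The siNT arrays of LOXL1 were spread from -0.17 to 0.18, and the siMESH1+siATF4 arrays, from 0.57 to 0.67, lay above them.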

How the data were processed

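Affymetrix human expression arrays were summarised by the authors as log2 signal with RMA in Expression Console (versions not given in the sources used here), and the siNT mean of each probe set was then subtracted before the table was deposited. That mean was within 1.2e-04 of 0 for every probe set, values ran from -3.77 to 3.41, and 0 of the array columns lacked a sample. Without absolute signals no filter on low values was possible, so all 40 measured members entered the tests. Of 22277 probe sets, 62 were control probe sets, and 19064 had 1 symbol in the platform annotation, 1043 several and 2108 none. Probe sets with 1 symbol were averaged per gene, for 11963 genes in all, and 4310 of these had several probe sets.

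Genes were tested with limma 3.58.1 (R 4.3.3) in 1 fit with a mean per group, without a block (8 residual degrees of freedom), checked on simulated data, with Benjamini-Hochberg adjustment over all genes and a minimum of 0.5 on the log2 scale. Precision is limited by the 3 arrays in each group. Alternatives were array median, housekeeping (8 of 12 listed genes measured) and control set centring (the 100 probe sets numbered from 200000 to 200099), the median of the probe sets, probe sets without cross-hybridisation, a replicate block, only the groups compared, no fold minimum, the methods' t-test and leaving out each array. Proliferation genes and markers of leukocytes, endothelium and red cells were read beside the members. Promoter letters came from RefSeq, with 35 members matched by symbol. Python 3.11.15, pandas 2.3.3, numpy 2.4.6, scipy 1.17.1 and matplotlib 3.10.9 were used.

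The members and lists were chosen with earlier results of these data known. All members are accounted for, those called in at least 1 comparison with their value on every array, and of each further list up to 4 genes called against siNT with the smallest adjusted p are named. VHL, ERO1A, INSIG2, EDN1 and MAFF, and CITED2 among the further targets, fall outside this rule and were chosen after their values were seen, the last 5 to complete counts of calls.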

Additional observations from a re-analysis of the deposited data

Results flagged for a closer look

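The effect of MESH1 knockdown on CA12 differed between the 2 ATF4 backgrounds, by the test of the difference itself. It was -0.72 with ATF4 silenced and -1.61 with ATF4 present, an interaction of 0.89 (SE 0.078, limma adjusted p = 1.4e-05 over all genes, 1.85-fold). It was called under every alternative run on the interaction, from 0.684 under housekeeping centring to 1.00 with the median of the probe sets, and ranged from 0.847 to 0.932 with single arrays left out. Whether MESH1 was silenced equally in the 2 backgrounds could not be checked, since HDDC3 was not measured. CA12 was the 1 member of 40 with a called interaction above 0, where 3.46% of all genes had one. Other members with a limma adjusted p under 0.05 for the interaction stayed under the fold minimum on the deposited scale. Those above 0 were HK1 (0.49), VEGFA (0.48), LOX (0.46), ENO1 (0.43), HILPDA (0.40), PFKP (0.37), TPI1 (0.30) and BNIP3 (0.24). Below 0 lay LOXL2 (-0.32), PFKFB3 (-0.24) and MXI1 (-0.24).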

How the results depend on the processing

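Each of the 34 member calls was recomputed under array median, housekeeping and control set centring, the median of the probe sets and the replicate block. They were also recomputed with each array left out and without probe sets that may cross-hybridise. VEGFA, SLC2A3, ENO1, LOX and NDRG1 have only such probe sets and were left out of the latter. This gave 601 values, which do not include the fits of only the groups compared or the methods' t-test. None reversed, 585 kept their direction and their call, and 16 kept their direction and lost the call. In all of these alternatives that were run for the gene, 24 calls held. The 10 that did not were the siMESH1 calls against siNT of VEGFA, HK1, HK2, PFKP, PGK1, ENO1, LOX and HILPDA, that of PGK1 in siATF4 against siNT and that of VEGFA in siMESH1 against siATF4. All 10 were lost under housekeeping centring, which adds 0.204 to every gene in siMESH1 against siNT. Whether the housekeeping genes or the deposited scale is nearer to the RNA content of the cells was not tested.

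Under housekeeping centring 3 members were called in siMESH1 against siNT in place of 10, and 2 in the interaction in place of 1. Over all genes that centring gave 1549 calls in siMESH1 against siNT (1165 higher and 384 lower) in place of 980 (337 and 643), and 1010 in the interaction (217 above and 793 below 0) in place of 516 (414 and 102). The split of higher and lower genes moved with it also in siMESH1+siATF4 (926 and 468, in place of 526 and 628), siATF4 (598 and 339, in place of 298 and 482), siMESH1+siATF4 against siMESH1 (302 and 477, in place of 409 and 321) and siMESH1 against siATF4 (652 and 428, in place of 468 and 568). Array median centring gave 3 members and the median of the probe sets 2 members with a called interaction. Without probe sets that may cross-hybridise, which removes SLC2A3 and LOX among others, 1 member was called in siATF4 against siNT in place of 2, and 3 in siMESH1+siATF4 against siMESH1 in place of 5. For array median centring, the median of the probe sets and this setting, counts over all genes are not given. With no fold minimum the members called were 28 in siMESH1+siATF4, 24 in siMESH1 and 22 in siATF4 against siNT, 24 in siMESH1+siATF4 against siMESH1, 13 in siMESH1+siATF4 against siATF4, 26 in siMESH1 against siATF4 and 12 in the interaction. The counts over all genes were then 4254, 4019, 3421, 3348, 1403, 4004 and 1424.

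Leaving out single arrays, the members called ranged from 5 to 6 in siMESH1+siATF4, from 8 to 10 in siMESH1 and stayed at 2 in siATF4 against siNT, from 5 to 6 in siMESH1+siATF4 against siMESH1, from 2 to 3 in siMESH1+siATF4 against siATF4, from 9 to 11 in siMESH1 against siATF4 and from 1 to 3 in the interaction. The interaction count was 3 without siMESH1+siATF4 replicate 2 or siATF4 replicate 3, and 2 without siNT replicate 3, siMESH1 replicate 1 or siATF4 replicate 2. The methods' t-test with the fold minimum called 5, 10, 2, 5, 2 and 9 members in the 6 pairwise comparisons in that order, with and without Benjamini-Hochberg adjustment. Counts over all genes are not given for these settings, so the member counts show only how far the calls among members moved.

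With the replicate number as a replicate block, the members called were 5, 10, 2, 5, 2, 9 and 1 in the 7 comparisons, and it changed no member's call. For this fit too, counts over all genes are not given. The deviations of same-numbered arrays from their group means correlated at -0.19 to 0.10 over 18 pairs (median 0.01), against -0.17 to 0.24 over 36 pairs of different numbers (median 0.00), so the numbers were not taken to pair the arrays.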
